A study of Mus musculus with 12 samples.

Results

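RNA of medullary and cortical thymic epithelium was compared in mice whose thymic epithelial cells lack HOIL. The comparison rests on 6 of the 12 libraries of the series, chosen by their labels: 3 of HOIL-deficient medullary thymic epithelial cells with high MHC class II (mTEChi) and 3 of HOIL-deficient cortical thymic epithelial cells (cTECs). All 6 came from C57BL/6 mice of the genotype Foxn1creT/+ HOIL lox/lox, in which Cre expressed from the Foxn1 promoter removes the floxed gene in thymic epithelium, so both groups carry the same transgene and the same deletion. The labels give no age and do not say whether replicates came from separate animals, and replicate 3 of both groups is female while the other 4 libraries are male. Cells were sorted by flow cytometry without CD45, TER-119 and CD31 and with EpCAM. Within that gate cTECs carried MHC class II and Ly51 and did not bind the lectin UEA1, and mTEChi bound UEA1, carried high MHC class II and lacked Ly51. The 6 control libraries (Foxn1cre+/+ Hoil lox/lox, 3 per cell type) entered only a check of the deleted gene and a test of whether the difference between the cell types differs from that of controls.

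The thymic cortex is where T cell precursors are recruited, commit to the T lineage under Notch ligands and are positively selected on peptides that cTECs make with their own proteases. In the medulla, epithelial cells present transcripts of many other tissues under Aire and Fezf2 and carry costimulatory ligands, so that self-reactive T cells are removed or become regulatory T cells. Medullary cells mature under RANK, CD40 and the lymphotoxin receptor, whose signals reach NF-kB, and HOIL-1, the product of Rbck1, belongs to the linear ubiquitin complex LUBAC that acts in such signalling.

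The deleted gene was low in all 6 libraries. Rbck1 (Entrez 24105, chromosome 2, 152316334 to 152332663; all positions are on mm10) stood at 11.3 to 31.2 CPM (counts divided by the library total in units of 1e6, here with totals scaled over all 12 libraries) in the HOIL-deficient libraries and at 113 to 235 CPM in the 6 controls. Levels from here on use totals scaled over the 6 HOIL-deficient libraries unless stated. Total counts ranged from 8445145 to 14274333 in the 6 HOIL-deficient libraries. The first principal component held 84.9% of the variance and separated the cell types. Across genes, the correlation of log2 levels was 0.939 to 0.953 between mTEChi libraries, 0.9501 to 0.963 between cTEC libraries and 0.666 to 0.692 between the cell types. Thinned to the smallest total of the series, mTEChi libraries had counts in 21414 ± 429.7 genes and cTEC libraries in 17261 ± 319 (SD, n = 3 each, exact permutation p = 0.1, two-sided, the smallest possible). Mitochondrial transcripts took 1.84 ± 0.113% and 1.46 ± 0.352% of counts (exact permutation p = 0.2). With unscaled totals, Xist reached 149 and 164 CPM in the female libraries and stayed between 1.48 and 6.51 CPM in the 4 male ones.

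The transcriptomes of the cell types stayed far apart without HOIL. Of 17661 genes tested, 7987 differed at a Benjamini-Hochberg adjusted p under 0.05 in the quasi-likelihood test of edgeR, which is 45.2% and is what "called" means below. In mTEChi 4998 genes were higher, 28.3% of those tested, and 2989 were lower, 16.9%. The difference was at least 2-fold for 4234 of the higher genes and 1833 of the lower ones, and at least 16-fold for 2236 and 56. For 10080 genes, 57.1%, the levels of the 3 mTEChi libraries did not overlap those of the 3 cTEC libraries. The median log2 fold change of mTEChi over cTECs (log2FC) was 0.11 over all tested genes. Of 15629 protein-coding genes tested, 4539 were higher and 2770 lower, and of 719 long non-coding RNA genes 192 were higher and 85 lower. All 3 cTEC libraries were at 0 for 1160 tested genes, all of them called, and all 3 mTEChi libraries for 7, also all called. These genes passed the filter on low counts through 1 group alone and had to differ, so their calls are a description. In these sorted bulk samples, fewer cells that express a gene and less of its RNA per cell cannot be told apart.

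**Figure D1:**
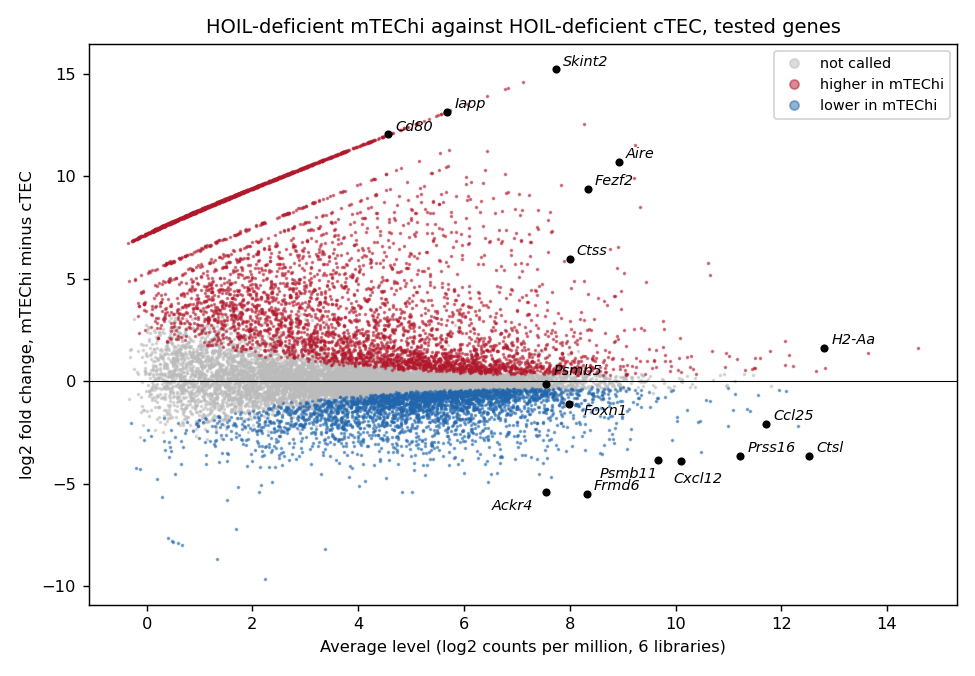
Log2 fold change of HOIL-deficient mTEChi over HOIL-deficient cTECs (vertical axis) against the average level over the 6 libraries (horizontal axis, log2 CPM), with 1 point per tested gene, red for the 4998 genes higher in mTEChi blue for the 2989 lower, grey for genes not called and black for labelled genes. The diagonal band of red points along the upper edge is the genes at 0 in all cTEC libraries, whose fitted fold change depends on the prior count.

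Every gene of a list of 19 cortical epithelial genes was lower in mTEChi, where 16.9% of all genes were, with a median log2 fold change of -2.41. The list was drawn up with earlier results of these data known, so this count is a description. With 1 library left out 17 to 19 were called lower, and over all alternatives at least 15. The 19 genes together made up 44269 to 45355 CPM in the cTEC libraries and 7796 to 8802 in mTEChi. One of them, Enpep, encodes Ly51 itself and was part of the sort, so its log2 fold change of -2.41 is no finding. Within the list, proteases for positively selecting peptides had log2 fold changes between -3.84 and -3.64. Psmb11 (Entrez 73902, chromosome 14, 54625310 to 54629556), which encodes the beta5t subunit of the thymoproteasome, stood at 1628, 1413 and 1497 CPM in cTEC replicates 1 to 3 and at 93.4, 105 and 119 in mTEChi. The groups lay far apart, each with a narrow spread (log2FC -3.84, SE 0.133, adjusted p = 3.8e-07; n = 3 per group here and below). Prss16 (Entrez 54373, chromosome 13, 22002176 to 22009741), the thymus-specific serine protease, stood at 4461, 4143 and 4629 CPM in cTECs and 209, 439 and 413 in mTEChi. Replicate 1 was the lowest mTEChi library, and no mTEChi value came near a cTEC value (log2FC -3.64, SE 0.260, adjusted p = 8.3e-06). Ctsl (Entrez 13039, chromosome 13, 64361890 to 64370772), the lysosomal protease of class II presentation in the cortex, stood at 10639, 11782 and 10193 CPM in cTECs and 599.6, 1124 and 889 in mTEChi. Again replicate 1 was the lowest mTEChi library and the groups did not overlap (log2FC -3.64, SE 0.215, adjusted p = 2.9e-06).

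The receptor, ligand and factor genes of the cortex followed in the same direction. Ly75 (Entrez 17076, chromosome 2, 60292103 to 60383273), the endocytic receptor DEC-205, stood at 226, 250.3 and 286 CPM in cTECs and 14.6, 20.1 and 27.2 in mTEChi, without overlap (log2FC -3.62, adjusted p = 4.6e-06). Cxcl12 (Entrez 20315, chromosome 6, 117168535 to 117181368), which attracts early thymocytes, stood at 2094, 2079 and 2015 CPM in cTECs and 90.3, 178 and 141 in mTEChi. The cTEC values were almost level and all far above those of mTEChi (log2FC -3.92, adjusted p = 2.9e-06). Fibroblast markers, another source of Cxcl12, were higher in cTECs as well (12 of 18, beside 16.9% of all genes), and their part was not tested. Dll4 (Entrez 54485, chromosome 2, 119325784 to 119335666), the Notch ligand for T lineage commitment, stood at 187, 122 and 173 CPM in cTECs and 18.1, 18.4 and 15.3 in mTEChi (log2FC -3.22, adjusted p = 4.1e-06). Replicate 2 was the lowest cTEC library, still well above every mTEChi library. Ccl25 (Entrez 20300, chromosome 8, 4325205 to 4360020), the ligand of CCR9 on thymocytes, and Il7 (Entrez 16196, chromosome 3, 7572028 to 7613760), a survival factor for thymocytes, were lower by smaller steps. Ccl25 stood at 5121, 6186 and 4895 CPM in cTECs and 1199, 1309.8 and 1311 in mTEChi (log2FC -2.08, adjusted p = 2.3e-06), and Il7 at 288, 359 and 271 and 147, 159 and 142 (log2FC -1.04, adjusted p = 0.00031). Foxn1 (Entrez 15218, chromosome 11, 78357577 to 78386783), a forkhead factor on which thymic epithelial development depends, stood at 367, 281 and 388 CPM in cTECs and 177, 140.3 and 163 in mTEChi. No library of mTEChi reached the lowest cTEC library (log2FC -1.11, SE 0.155, adjusted p = 0.00041). Pax1, a paired-box factor of the pharyngeal pouches, was lower by a larger step, at 83.4 ± 14.7 CPM against 721 ± 112 (log2FC -3.11, adjusted p = 2.5e-06).

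The promoters of Psmb11, of the cortical list, and Aire, of the medullary list, are printed. Prss16 was chosen with them, but no RefSeq promoter entry was available for it. GACGC, the core letters that FOXN1 is known to bind, were searched on both strands from 250 bases before to 50 after each RefSeq start on GRCm38.p6, the assembly of mm10, and the matches are in capitals (GCGTC is GACGC on the other strand). Each sequence is given 5′ to 3′ on the strand of its gene, Psmb11 at chr14:54625060-54625359 on the plus strand and Aire at chr10:78043561-78043860 on the minus strand.
Psmb11: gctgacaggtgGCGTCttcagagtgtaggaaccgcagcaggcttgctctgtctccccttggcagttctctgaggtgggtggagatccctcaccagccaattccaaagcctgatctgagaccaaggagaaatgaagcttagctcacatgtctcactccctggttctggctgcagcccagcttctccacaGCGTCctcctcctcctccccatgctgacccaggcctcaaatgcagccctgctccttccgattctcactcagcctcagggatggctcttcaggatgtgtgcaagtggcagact
Aire: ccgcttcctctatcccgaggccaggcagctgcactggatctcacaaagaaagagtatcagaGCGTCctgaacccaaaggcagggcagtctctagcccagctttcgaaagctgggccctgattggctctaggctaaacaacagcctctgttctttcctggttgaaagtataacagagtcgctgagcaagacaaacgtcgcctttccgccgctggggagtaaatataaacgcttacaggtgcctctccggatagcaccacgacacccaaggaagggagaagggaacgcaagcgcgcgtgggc
The Psmb11 window holds 2 matches and the Aire window 1. The letters occurred in 7 of 17 promoters of cortical list genes, 41.2%, and in 9 of 19 promoters of medullary list genes, 47.4%, which is 7 of 16 genes in each list. Over all tested genes the share was 40.1%, over genes higher in mTEChi 29.4%, over genes lower in mTEChi 45.6%. Among all 32851 promoters it was 27.2%. The NF-kB consensus occurred in 6 of 19 medullary list promoters and in 0 of 17 cortical ones, with 5.33% over tested genes, 6.79% over higher genes, 5.03% over lower genes and 4.51% over all promoters. By gene, 4 of 16 medullary genes had a match (Fezf2, Nfkb2, Spib and Krt14), and Nfkb2 with 3 promoters gave 3 of the 6. A match describes letters in a window, and some genes have several promoters.

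Of the 10 genes with the largest decrease in mTEChi at a mean of at least 5 log2 CPM, Ackr4 is a chemokine scavenger of the cortical list and Frmd6 a FERM domain protein of the Hippo pathway. Frmd6 (Entrez 319710, chromosome 12, 70825456 to 70902234) stood at 673, 585 and 614 CPM in cTECs and 14.5, 14.3 and 12.8 in mTEChi. Its groups were the farthest apart of the lower genes named by that rule (log2FC -5.50, SE 0.137, adjusted p = 3e-07). Ackr4 (Entrez 252837, chromosome 9, 104097682 to 104126643), which takes up CCL19, CCL21 and CCL25, stood at 448, 308 and 340.5 CPM in cTECs and 8.08, 11.1 and 6.85 in mTEChi, without overlap (log2FC -5.40, adjusted p = 8e-07). The tight-junction gene Cldn8 and the prolyl hydroxylase gene P4ha3 were at 63.2 ± 7.64 and 188 ± 33.1 CPM in cTECs and at 1.55 ± 1.49 and 8.48 ± 0.876 in mTEChi, a log2 fold change of -5.41 and -4.47. Olfml1 (log2FC -4.90), the secreted matrix protein gene Spon2 (log2FC -4.67), Wscd1 (log2FC -4.55), Plxdc2 (log2FC -4.52) and Sptssb (log2FC -4.50), a subunit of serine palmitoyltransferase, were also among them.

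Of 21 medullary epithelial genes 19 were higher in mTEChi and none lower, beside 28.3% of all genes higher, with a median log2 fold change of 4.44. This list too was drawn up with earlier results of these data known. Cd80, 1 of the 19, was at 0 in every cTEC library and had to differ. Aire (Entrez 11634, chromosome 10, 78030022 to 78043610), the autoimmune regulator, stood at 1047, 804 and 1057 CPM in mTEChi replicates 1 to 3 and at 1.60, 0.399 and 0 in cTECs. Every mTEChi library lay far above all cTECs, which were near or at 0 (log2FC 10.72, SE 0.585, adjusted p = 2.2e-06). Fezf2 (Entrez 54713, chromosome 14, 12338992 to 12346803), a zinc finger factor for another set of such transcripts, stood at 723, 599.9 and 619 CPM in mTEChi and 2.74, 0.399 and 0.141 in cTECs, without overlap (log2FC 9.39, adjusted p = 5.2e-06). Spib, an ETS factor downstream of RANK signalling, was at 244 ± 56.8 CPM against 1.88 ± 1.196 (log2FC 6.96, adjusted p = 3.4e-06). Tnfrsf11a (Entrez 21934, chromosome 1, 105780673 to 105849444), which encodes RANK, stood at 358, 274 and 310.0 CPM in mTEChi and 9.48, 18.4 and 16.8 in cTECs. Its lowest mTEChi library was far above its highest cTEC library (log2FC 4.39, SE 0.251, adjusted p = 2.5e-06). Cd40 (Entrez 21939, chromosome 2, 165055614 to 165071654) stood at 415, 351 and 437 CPM in mTEChi and 85.6, 93.8 and 74.2 in cTECs, a smaller separation (log2FC 2.25, adjusted p = 4.4e-06). Tnfrsf11b, the decoy receptor of RANK ligand, was at 335 ± 26.8 CPM against 2.07 ± 2.75 (log2FC 7.42, adjusted p = 0.00039), with a cTEC mean that came mostly from replicate 2. The 2 medullary genes not called were the basal keratins Krt5, at 145 ± 23.9 CPM in mTEChi and 154 ± 83.2 in cTECs (log2FC -0.08, adjusted p = 0.88), and Krt14, at 424 ± 70.4 and 331 ± 56.3 (log2FC 0.35, adjusted p = 0.11). Both overlapped between the groups.

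**Figure D2:**
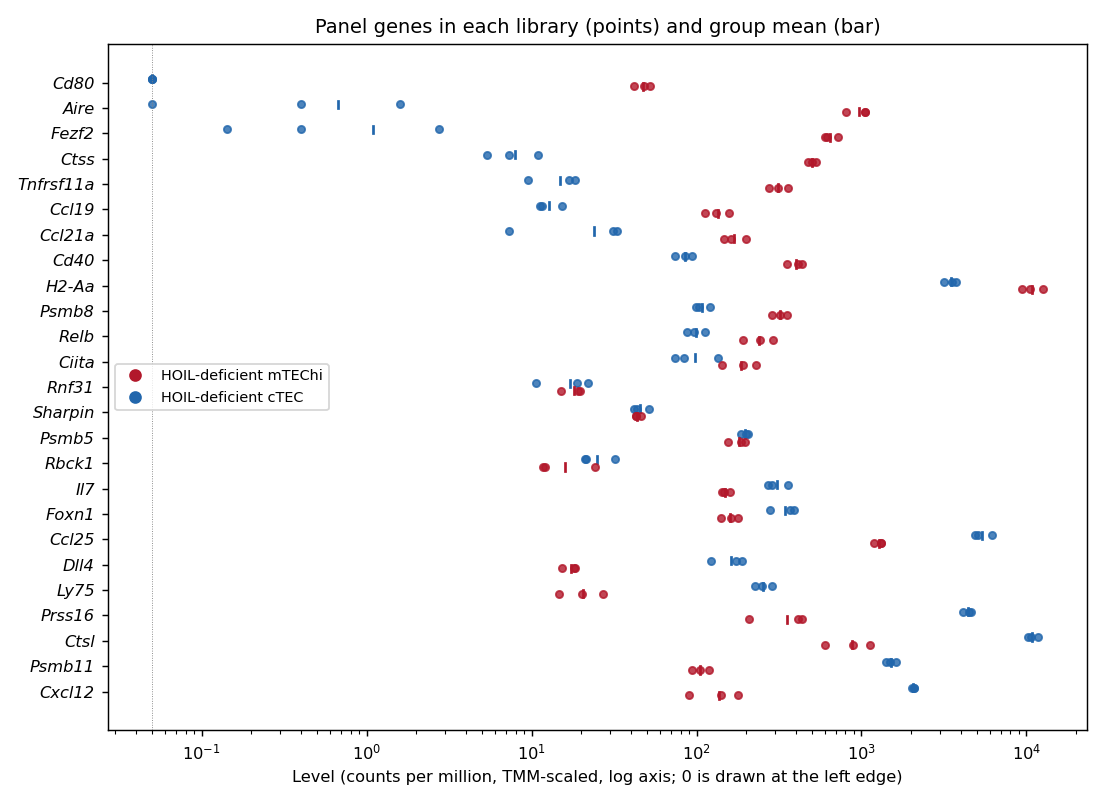
Level of 25 lineage, presentation and LUBAC genes in each HOIL-deficient library (horizontal axis, CPM on a log scale, 0 drawn at the dotted line; points are libraries, vertical bars group means, red mTEChi and blue cTECs). From Cxcl12 at the bottom to Cd80 at the top the groups pass from lower to higher in mTEChi, and only Rbck1, Psmb5, Sharpin and Rnf31 overlap.

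Among 20 MHC class II presentation genes 12 were higher and 5 lower in mTEChi, beside 28.3% and 16.9% of all genes, with a median log2 fold change of 1.16, and the sort itself took mTEChi for high MHC class II. H2-Aa (Entrez 14960, chromosome 17, 34282744 to 34287823) stood at 12589, 9416 and 10503 CPM in mTEChi and 3759.6, 3542 and 3180.5 in cTECs (log2FC 1.63, adjusted p = 1.2e-05), and the invariant chain Cd74, the most abundant transcript of all 6 libraries, at 37112 ± 2304 and 11979 ± 1067 (log2FC 1.63, adjusted p = 2.9e-06). Ciita (Entrez 12265, chromosome 16, 10480014 to 10531064), the class II transactivator, stood at 228, 142 and 191 CPM in mTEChi and 135, 74.5 and 84.4 in cTECs. The lowest mTEChi library was just above the highest cTEC library (log2FC 0.93, SE 0.248, adjusted p = 0.013). The call was lost without mTEChi replicate 1 (adjusted p = 0.056) and with male libraries only (0.1). Over all alternatives the adjusted p was 0.00041 to 0.79, with 0.79 from the test against 2-fold. The non-classical chains H2-Oa (log2FC 2.55) and H2-Eb2 (log2FC 4.25) were higher by larger steps, and H2-DMa, which loads peptides, was lower (log2FC -0.44). Counts of class II genes can be shared between near-identical family members. The proteases of the pathway went in opposite directions. Ctss (Entrez 13040, chromosome 3, 95526786 to 95556405), cathepsin S, stood at 533, 503 and 471 CPM in mTEChi and 7.31, 5.39 and 10.96 in cTECs, the reverse of Ctsl (log2FC 5.97, SE 0.254, adjusted p = 6.4e-07). No library overlapped in either gene. Marker genes of dendritic cells and macrophages, which express Ctss as well, were also higher in mTEChi (10 of 14, beside 28.3% of all genes). Their part was not tested. Ifi30, the lysosomal thiol reductase, was higher (log2 fold change 2.84), while Ctsd and Lgmn were lower (-1.14 and -1.04).

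Among 21 MHC class I and proteasome genes 11 were higher and 3 lower, the latter near the 16.9% of all genes, with a median of 0.60. The 3 lower genes were the catalytic subunits Psmb11, Psmb9 and Psmb10, and 5 were lower without cTEC replicate 2. Psmb9 stood at 619, 671 and 566 CPM in cTECs and 179, 186 and 192 in mTEChi (log2FC -1.74, adjusted p = 4.7e-06), and Psmb10 at 768, 839 and 788 and 539.8, 476 and 477 (log2FC -0.68, adjusted p = 0.00065). Neither overlapped. Psmb8 (Entrez 16913, chromosome 17, 34198195 to 34201454), the immunoproteasome counterpart of Psmb11 at the same catalytic position, stood at 322, 285 and 353 CPM in mTEChi and 120.4, 104 and 99.8 in cTECs, the opposite direction (log2FC 1.57, SE 0.135, adjusted p = 2.4e-05). Psmb5 (Entrez 19173, chromosome 14, 54614120 to 54617995), the constitutive subunit of that position, overlapped, at 179.6 ± 22.1 CPM in mTEChi and 197 ± 9.003 in cTECs (log2FC -0.13, adjusted p = 0.44). As levels per kilobase of gene length, which allow genes to be compared, Psmb11, Psmb5 and Psmb8 were at 356, 226 and 88.3 CPM per kilobase in cTECs and at 24.9, 206 and 262 in mTEChi. Psmb11 was thus the highest of the 3 in cTECs and the lowest in mTEChi. The class I light chain B2m and the proteasome activator Psme1 were higher in mTEChi, at 6833 ± 187 against 1741 ± 305 CPM (log2FC 1.97, adjusted p = 5.2e-06) and 352 ± 21.3 against 77.0 ± 8.78 CPM (log2FC 2.19, adjusted p = 3.2e-06).

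Of 10 genes of linear ubiquitin signalling 3 were higher, 1 lower and 6 not called, with a median of 0.24. The share higher was near the 28.3% of all genes and the share lower was below the 16.9%. Rbck1 itself stood at 11.6, 11.98 and 24.2 CPM in mTEChi and 21.3, 32.1 and 21.1 in cTECs. The groups overlapped through mTEChi replicate 3, and the difference was not called (log2FC -0.63, SE 0.345, adjusted p = 0.17); it was called without that library (adjusted p = 0.03, over all alternatives 0.03 to 1). Rnf31 (Entrez 268749, chromosome 14, 55591713 to 55603674), whose product HOIP joins the linear chains, stood at 19.6, 19.1 and 15.2 CPM in mTEChi and 22.1, 10.7 and 18.9 in cTECs and overlapped (log2FC 0.06, adjusted p = 0.89). Sharpin (Entrez 106025, chromosome 15, 76347040 to 76351110), the other adaptor of LUBAC, stood at 42.7, 45.8 and 43.0 and 41.9, 51.7 and 43.3 CPM and overlapped too (log2FC -0.06, adjusted p = 0.81). Otulin, the deubiquitinase of linear chains, was at 185 ± 11.7 CPM in mTEChi and 54.2 ± 5.22 in cTECs (log2FC 1.77, adjusted p = 1.2e-05), and the ubiquitin-binding inhibitors Tnip1 and Tnip2 were higher by 1.60 and 2.16 on the log2 scale. Tnfaip3, which encodes A20, was lower (log2FC -0.87, adjusted p = 0.01), and with Rbck1 2 genes were lower without mTEChi replicate 3. Over all alternatives the adjusted p of Tnfaip3 was 0.0021 to 0.96, with 0.96 from the test against 2-fold. With male libraries only it was 0.13.

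Of 24 TNF receptor family and NIK pathway genes 10 were higher in mTEChi, beside 28.3% of all genes, and 4 lower, a share near the 16.9% of all genes, with a median of 0.39. Besides RANK and CD40, the death receptor Fas was higher, at 186, 192 and 187 CPM against 18.5, 9.77 and 21.4 in cTECs (log2FC 3.502, adjusted p = 1.1e-05), and so was the adaptor Traf1 (log2FC 3.56, adjusted p = 1.4e-05). The lymphotoxin receptor Ltbr was lower, at 32.1, 38.5 and 37.3 CPM in mTEChi against 148, 119 and 125 (log2FC -1.86, adjusted p = 2.1e-05), as were Tnfrsf1a (log2FC -1.86), Tnfrsf12a (log2FC -1.14) and Tnfrsf19 (log2FC -3.44). Fas, Ltbr and the genes of RANK and CD40 did not overlap between the groups.

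Among 24 NF-kB factors, inhibitors and targets 14 were higher and 6 lower, beside 28.3% and 16.9% of all genes, with a median of 0.86. With 1 library left out 12 to 14 were higher and 4 to 5 lower. The subunits of the non-canonical arm were higher: Relb (Entrez 19698, chromosome 7, 19606217 to 19629438) stood at 289, 191 and 242 CPM in mTEChi and 96.6, 87.9 and 113 in cTECs, without overlap (log2FC 1.28, SE 0.175, adjusted p = 0.00037), and Nfkb2 had a log2 fold change of 1.18. Rel was higher too (log2FC 1.80), while Nfkb1 (log2FC -0.60) and Rela (log2FC -0.39) were lower. The Nfkb1 call (adjusted p = 0.02) was lost without cTEC replicate 1 or mTEChi replicate 1 or 2 (up to 0.083). It was also lost with male libraries only (0.073). Over all alternatives its adjusted p was 0.0051 to 1, the upper end from the test against 2-fold. The inhibitor Nfkbia, a feedback target, was at 1755 ± 178 CPM against 404 ± 37.2 (log2FC 2.12, adjusted p = 2.5e-06). Of 25 BCL2 family and cell death genes 12 were higher and 3 lower, beside the same shares, with a median of 0.35. With 1 library left out 9 to 11 were higher and 3 lower. Higher genes included the pro-survival Bcl2a1d (log2FC 8.85), whose counts may be shared with its near-identical copies, and Cflar (log2FC 1.61), as well as the pro-death genes Pmaip1 (log2FC 5.70) and Bik (log2FC 4.61). Bcl2 was lower, at 30.6 ± 3.09 CPM against 82.1 ± 7.22 (log2FC -1.42, adjusted p = 0.00014).

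Chemokines that place thymocytes in the tissue were divided by cell type. Of 20 chemokine and scavenger genes 14 were higher in mTEChi, beside 28.3% of all genes, and 4 lower, a share near the 16.9% of all genes (median 2.65). Of the 20 genes, 2 were at 0 in every library of 1 group and had to differ. The lower ones were Ccl25, Cxcl12, Cx3cl1 and Ackr4. Ccl19 (Entrez 24047, chromosome 4, 42754525 to 42756365), a ligand of CCR7 on maturing thymocytes, stood at 132, 113 and 158 CPM in mTEChi and 15.2, 11.6 and 11.2 in cTECs, without overlap (log2FC 3.41, SE 0.203, adjusted p = 3.1e-06). Ccl21a (Entrez 18829, chromosome 4, 42772860 to 42773991), the other CCR7 ligand, stood at 199, 147 and 162 CPM in mTEChi and 32.8, 31.1 and 7.28 in cTECs, with the lowest cTEC value in replicate 3 (log2FC 2.85, SE 0.464, adjusted p = 0.00097); its counts may be shared with near-identical copies. Ccl20 was at 158 ± 14.9 CPM against 0.566 ± 0.492 (log2FC 8.27, adjusted p = 4.2e-06). Among 15 tested cytokine genes for developing T cells 5 were higher and 5 lower, beside 28.3% and 16.9% of all genes, with a median of 0.05. Il12a was higher, at 96.2 ± 16.7 CPM against 0.252 ± 0.377 (log2FC 8.72, adjusted p = 4.6e-06), and so was Tslp (log2FC 3.45), while the lower ones besides Il7 were Kitl (log2FC -1.54), Il33 (log2FC -3.38), Il34 (log2FC -3.26) and Tgfb3 (log2FC -2.87).

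Of 16 tested costimulatory and coinhibitory ligands 10 were higher, beside 28.3% of all genes, and 3 lower, near the 16.9% of all genes. Their median was 2.63, and 2 of them were at 0 in every library of 1 group and had to differ. Cd80 (Entrez 12519, chromosome 16, 38457430 to 38495958), a ligand of CD28 and CTLA-4, stood at 47.8, 52.3 and 41.5 CPM in mTEChi and had no count in any cTEC library. Read against 3 counts over the cTEC group (0.0911 CPM), that is at least 512-fold higher, a bound that covers counting error only. Cd86 stood at 35.6, 29.5 and 21.3 CPM in mTEChi and 1.14, 0.499 and 0.778 in cTECs (log2FC 5.15, adjusted p = 1.4e-05), and Icosl, the ligand of ICOS, at 408, 318 and 410.4 and 2.29, 8.48 and 3.68 (log2FC 6.30, adjusted p = 4.8e-06). Neither overlapped. Dendritic cell and macrophage markers, which carry such ligands too, moved the same way, with sums of 1022 to 1309 CPM in mTEChi and 56.0 to 118 in cTECs, and their part was not tested. Lgals9 and Cd274 ran the other way: Lgals9, a galectin, was at 238 ± 9.65 CPM in mTEChi and 1712 ± 205 in cTECs (log2FC -2.85, adjusted p = 6.5e-07), and Cd274, which encodes PD-L1, at 85.4 ± 4.47 and 159 ± 17.0 (log2FC -0.90, adjusted p = 0.00058).

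Of 19 Notch pathway genes 10 were lower and 2 higher in mTEChi, beside 16.9% and 28.3% of all genes, with a median of -0.93. Lower genes included the ligands Dll4, Dll1 (log2FC -2.12) and Jag2 (log2FC -2.38) and the target Hey1, at 19.3, 43.1 and 24.8 CPM in mTEChi and 232, 236 and 243 in cTECs (log2FC -3.03, adjusted p = 3e-05), and the Hes family gene Hes6 (log2FC -1.01). The glycosyltransferase Mfng, which modifies Notch receptors, was higher (log2FC 2.41). Of 25 BMP, FGF and Wnt genes 9 were lower, beside 16.9% of all genes, and 5 higher, beside 28.3%, with a median of -0.69. Fgfr2, the receptor of keratinocyte growth factor, stood at 187, 99.6 and 147 CPM in cTECs and 17.3, 14.4 and 5.97 in mTEChi (log2FC -3.54, adjusted p = 1e-04), and Bmpr1a, a BMP receptor, was lower too (log2FC -1.58). Wnt ligands differed in direction: Wnt4 was at 62.5 ± 12.7 CPM in mTEChi and 324 ± 30.0 in cTECs (log2FC -2.37, adjusted p = 9.2e-06), and Wnt10a at 107 ± 8.33 and 4.99 ± 1.47 (log2FC 4.42, adjusted p = 2.4e-06). Fgf21, a secreted FGF of the medullary list, was at 954 ± 59.3 CPM against 10.02 ± 3.28 (log2FC 6.56, adjusted p = 3.8e-07).

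Among 24 tested epithelial fate factors 9 were higher and 9 lower, beside 28.3% and 16.9% of all genes, with a median of -0.10. Of the 24 factors, 1 was at 0 in every library of 1 group and had to differ. Trp63, which encodes p63 of stratified epithelia, was lower, at 46.7, 55.2 and 47.3 CPM in mTEChi and 377, 337 and 341 in cTECs (log2FC -2.82, adjusted p = 9.9e-07). The lower factors also held Pax1, Pax9 (log2FC -1.198), Hoxa3 (log2FC -2.82) and Eya1 (log2FC -1.73), factors of pharyngeal pouch development. Higher factors were of differentiated epithelia and other lineages, such as Ehf (log2FC 4.95), Grhl3 (log2FC 3.996) and Foxj1 (log2FC 6.13). Among 24 keratin and junction genes 10 were higher and 7 lower, beside 28.3% and 16.9% of all genes, with a median of 0.61. The simple-epithelium keratin Krt18 stood at 8318, 8302 and 8274 CPM in cTECs and 1872, 1881 and 1759.5 in mTEChi (log2FC -2.18, adjusted p = 4.2e-07), and its partner Krt8 was lower as well (log2FC -1.36). Claudins split, with Cldn3 (log2FC 5.96), Cldn4 (log2FC 6.27) and Cldn7 (log2FC 6.85) higher and Cldn8 (log2FC -5.41) and Cldn1 (log2FC -1.26) lower, and the tight-junction gene Ocln was higher (log2FC 3.5003). Epcam, which the sort required of both groups, was at 833 ± 40.1 CPM in mTEChi and 385 ± 23.1 in cTECs (log2FC 1.11, adjusted p = 3.5e-05).

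Medullary epithelium holds cells that take on programmes of peripheral tissues, often called mimetic cells, and genes of each such programme were found in mTEChi. Members of these lists that passed the filter often did so through mTEChi alone, so their counts describe and support nothing. The counts stand beside 28.3% of all genes higher in mTEChi and 16.9% lower. Of 22 cornifying epithelium genes 21 were tested and 19 were higher, with a median of 7.18, or 5.88 with the 7 genes at 0 in every cTEC library set to their bound. Dsg1a, a desmosomal cadherin of keratinizing layers, was at 161, 157 and 201 CPM in mTEChi and 0.114, 0.0997 and 0 in cTECs (ratio 2895, exact 95% interval 801 to 23914). Klk7, a protease of the cornified layer, was at 66.9, 71.5 and 43.6 CPM in mTEChi and at 0 in cTECs, at least 646-fold higher. Of 23 tested gut, microfold and secretory genes 22 were higher (median 6.96, 6.89 at the bound), with Saa3 at 149 ± 62.0 CPM against 0.447 ± 0.332 and Lypd8 at 131 ± 26.1 against 0.190 ± 0.330.

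Of 17 tested tuft cell genes 13 were higher and none lower, with a median of 3.64. All counts of this paragraph stand beside 28.3% of all genes higher in mTEChi and 16.9% lower. Some members passed the filter through mTEChi alone, so these counts are a description. The taste transduction genes Gnat3, at 25.3, 24.5 and 16.9 CPM, and Trpm5, at 6.50, 12.5 and 16.2 CPM, had no count in cTECs and were at least 237-fold and 135-fold higher. Pou2f3, the master factor of tuft cells, was not called, at 12.3 ± 4.19 CPM in mTEChi and 15.3 ± 2.14 in cTECs (log2FC -0.31, adjusted p = 0.47), and the groups overlapped. Dclk1, a further tuft gene, was at 46.9 ± 10.6 and 43.4 ± 1.38 CPM (log2FC 0.11, adjusted p = 0.67). Of 14 tested neuroendocrine genes 11 were higher (median 4.80), among them Chga, a granin of secretory vesicles, at 41.8, 50.05 and 82.8 CPM in mTEChi and 0 in cTECs, at least 669.7-fold higher. Of 14 tested ciliated cell genes 7 were higher and 1 lower (median 2.21). Mcidas, a regulator of multiciliated cells, was at 9.97, 10.5 and 11.9 CPM in mTEChi and 0 in cTECs, and the lower gene was Tppp3 (log2FC -1.11, adjusted p = 0.0014). Of 15 tested muscle genes 13 were higher (median 4.72). Myog, the myogenic factor myogenin, was at 38.0, 20.4 and 50.2 CPM in mTEChi and 0 in cTECs, at least 412-fold higher.

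Transcripts of secreted proteins of single organs were present in every mTEChi library. List counts in this paragraph stand beside 28.3% of all genes higher in mTEChi and 16.9% lower. They are a description, as some members passed the filter through mTEChi alone. Csn2, the milk protein beta-casein, stood at 1192, 1205 and 1159 CPM in mTEChi and 2.63, 1.50 and 0 in cTECs, and Calcb, a calcitonin-family neuropeptide gene, at 1183, 1127 and 1285 and 1.03, 0.199 and 0.141. Both were among the abundant transcripts of mTEChi and near or at 0 in cTECs (log2FC 9.92, adjusted p = 1.1e-05 for Csn2 and log2FC 11.50, adjusted p = 3.8e-07 for Calcb). Of 22 milk, salivary and seminal protein genes 14 passed the filter and all 14 were higher (median 9.14, 7.74 at the bound), with the casein Csn3 at 15.5 ± 6.47 CPM and at least 178-fold higher. Dcpp1, a salivary protein gene with near-identical copies, was at 37.9 ± 2.82 CPM. Of 21 tested peptide hormone genes 20 were higher and 1 lower (median 9.30, 8.13 at the bound). Iapp, the islet amyloid peptide, stood at 104, 86.8 and 117 CPM and Gcg, proglucagon, at 29.2, 37.6 and 40.4 CPM in mTEChi, with 0 in cTECs, so they were at least 1142-fold and 399-fold higher. Ins2, insulin, was at 9.97, 5.37 and 10.7 CPM against 0, 0.0997 and 0 (ratio 291, exact 95% interval 51.9 to 11539.9). Penk, proenkephalin, was the hormone gene lower in mTEChi, at 37.0, 51.3 and 102 CPM against 177, 174 and 207 (log2FC -1.55, adjusted p = 0.0036).

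Liver plasma protein genes gave 17 higher and 1 lower of 19 tested (median 8.001, 6.196 at the bound). This count and the list counts below stand beside 28.3% of all genes higher in mTEChi and 16.9% lower. Some members passed the filter through mTEChi alone, so the counts are a description. Fgg, a fibrinogen chain, was at 40.1 ± 11.7 CPM in mTEChi and 0.204 ± 0.0940 in cTECs (log2FC 7.497, adjusted p = 3.3e-06), and the lower gene was Vtn, vitronectin (log2FC -2.93, adjusted p = 0.0041). Of 22 organ-specific autoimmune target genes 15 were tested and 10 were higher (median 4.09). Gad1, a target in diabetes, was at 34.1, 33.8 and 39.0 CPM in mTEChi and 0 in cTECs, and the gastric proton pump gene Atp4b at 35.2, 17.5 and 27.3 and 0, at least 395-fold and 291-fold higher. Of 12 tested germline and testis genes 8 were higher (median 4.72, 4.20 at the bound), such as Zp3, a zona pellucida gene, at 21.1 ± 0.882 CPM against 0. The 10 named genes with the largest increase were all at 0 in cTECs. Skint2 (Entrez 329919, chromosome 4, 112613598 to 112652248), of a family of similar genes known from the thymic selection of skin T cells, was the highest of them at 472, 418 and 387 CPM, at least 4619-fold higher. Cyp26a1 (at least 2995-fold), Cldn13 (2504-fold), Calca (2455-fold), Apoa1 (1906-fold), Crhbp (1464-fold), Rln3 (1167-fold), Iapp (1142-fold), Tnni1 (1082-fold) and Kynu (1039-fold) followed.

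**Figure D3:**
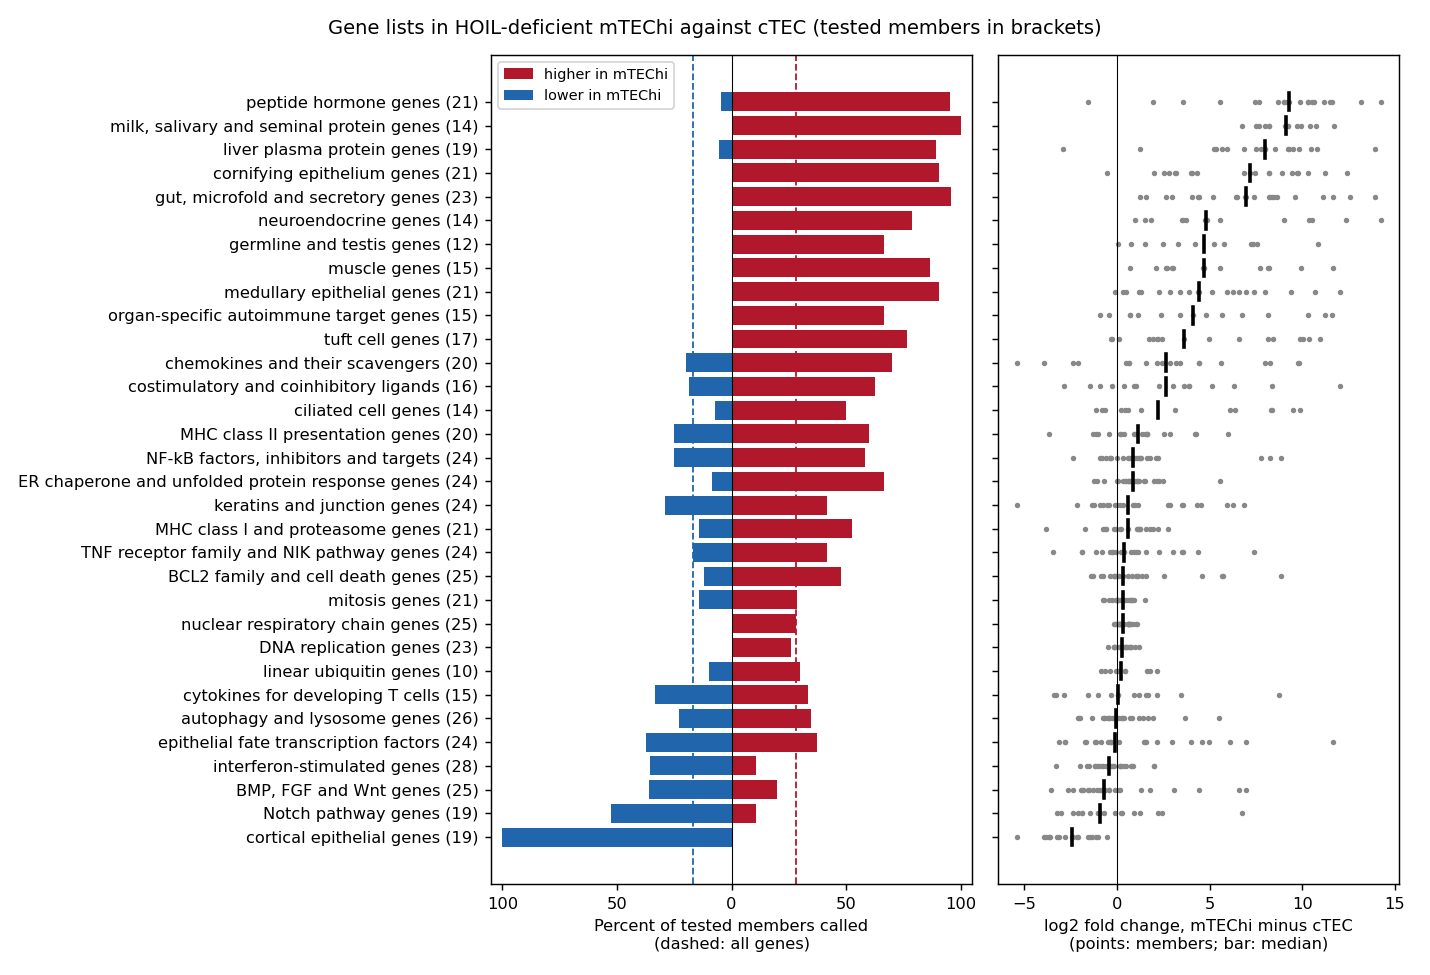
Share of the tested members of each gene list that was higher (red) or lower (blue) in HOIL-deficient mTEChi (left, percent, dashed lines mark the 28.3% and 16.9% of all genes), and log2 fold change of each member with the list median as a bar (right). The cortical list stands at the bottom with all 19 members lower, and the lists of other tissues at the top. Members at 0 in every cTEC library are drawn at their fitted values.

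Genes of the secretory pathway were higher in mTEChi. Of 24 endoplasmic reticulum chaperone and unfolded protein response genes 16 were higher and 2 lower, beside 28.3% and 16.9% of all genes. Their median was 0.85, and their summed levels were 12839 to 13503 CPM in mTEChi against 6093 to 6469 in cTECs. The chaperone-associated genes Herpud1 (log2FC 2.50), Sdf2l1 (log2FC 2.26), Creld2 (log2FC 2.18) and Manf (log2FC 1.98) had the smallest p-values, while Xbp1, a transcription factor of the response, was lower, at 137, 168 and 147 CPM in mTEChi and 314, 304 and 328 in cTECs (log2FC -1.07, adjusted p = 0.00011). Of 26 autophagy and lysosome genes 9 were higher and 6 lower, shares near the 28.3% and 16.9% of all genes, with a median of -0.05. Cathepsins H and Z were higher, with Ctsh at 999, 893 and 885 CPM in mTEChi and 18.6, 25.6 and 16.8 in cTECs (log2FC 5.51, adjusted p = 3.8e-07) and Ctsz at 775 ± 69.6 and 59.9 ± 11.9 (log2FC 3.69, adjusted p = 9.1e-07). Lamp2, a lysosomal membrane protein, and Ctsa, cathepsin A, were lower (-1.98 and -2.02).

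Markers of other cell types were present at different levels in the 2 groups, and their part in the results above was not tested. The counts below stand beside 28.3% of all genes higher in mTEChi and 16.9% lower. Of 18 fibroblast and pericyte markers 12 were lower and 1 higher in mTEChi (median -1.93), and their sum was 1038 to 1346 CPM in mTEChi and 3498 to 4981 in cTECs. Col3a1, a fibrillar collagen, stood at 674, 613 and 1156 CPM in cTECs and 139, 64.0 and 102 in mTEChi, and Dcn, decorin, at 676, 841 and 820.1 and 274, 209 and 229.7. Of 20 thymocyte markers 11 were lower and none higher (median -1.09), with sums of 328 to 514 CPM in mTEChi and 576 to 1115 in cTECs. The count of 11 fell to 6 without cTEC replicate 3 and to 7 without mTEChi replicate 1 or 2. Cd8a was at 19.0, 18.1 and 32.8 CPM in mTEChi and 61.4, 60.7 and 101 in cTECs. Of 14 tested dendritic cell and macrophage markers 10 were higher and none lower (median 3.02), with sums of 1022 to 1309 and 56.0 to 118 CPM. Most of that sum was Lyz2, which has the near-identical copy Lyz1, at 878 ± 132 CPM in mTEChi, while the complement gene C1qb was at 79.4 ± 13.2 CPM. Of 11 tested B and plasma cell markers 7 were higher and none lower (median 4.23), with sums of 221 to 274 and 48.5 to 109 CPM, and Cd79b was at 52.5, 43.6 and 48.2 CPM against 1.94, 0.598 and 4.81. Among 13 tested adipocyte markers 5 were higher and 1 lower (median 0.39, sums 1329 to 1717 and 523 to 832 CPM), with 3 higher without cTEC replicate 2, and the sum was mostly Fabp4 at 1144 ± 289 against 206 ± 57.7 CPM. Of 16 endothelial markers 1 was higher, a share below that of all genes (median 0.88, sums 364 to 944 and 211 to 615 CPM). The count was 7 without mTEChi replicate 1, 6 without cTEC replicate 2 and 2 without cTEC replicate 1. Of 12 Schwann cell markers 2 were higher and 1 lower, shares below those of all genes (median 0.64, sums 193 to 241 and 304 to 379 CPM). Their sum and their median thus ran in opposite directions, and the lower gene was Pmp22. Of 6 tested erythroid markers 2 were higher, a share near that of all genes (median 1.58, sums 396 to 1494 and 31.3 to 612 CPM). No tested marker of the thymocyte, fibroblast, endothelial, Schwann cell or B cell lists was at 0 in all libraries of a group, and in cTECs Cd209a, Cidea and Klf1 of the others were.

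**Figure D4:**
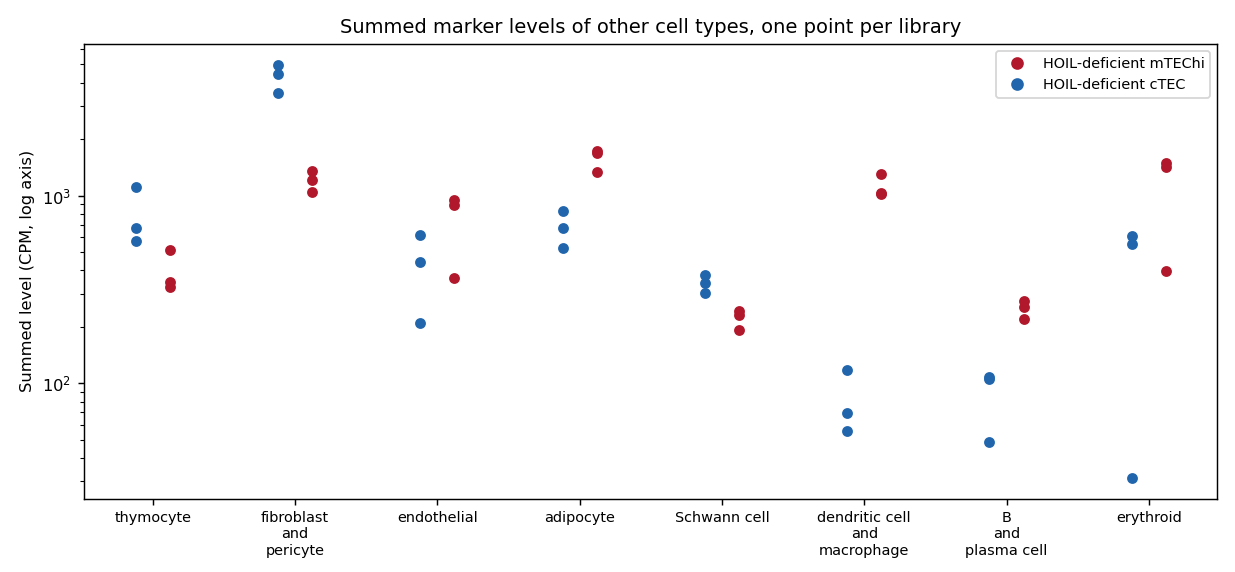
Summed level of the marker genes of 8 other cell types (vertical axis, CPM on a log scale), with 1 point per library, red for HOIL-deficient mTEChi and blue for HOIL-deficient cTECs. Fibroblast, thymocyte and Schwann cell sums are lower in every mTEChi library than in any cTEC library, adipocyte, dendritic cell and macrophage, and B and plasma cell sums are higher, and endothelial and erythroid sums overlap. For Schwann cell markers the median log2 fold change over members was 0.64, the opposite direction to the sum.

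To see which of these differences are also those of controls, all 12 libraries were fitted together. Going by the genotypes, controls lacked the Cre transgene that every HOIL-deficient library carried. Effects of the transgene and of HOIL loss on the interaction cannot be told apart. Of 19398 genes tested there, 9382 (48.4%) were called between the cell types without HOIL and 12462 (64.2%) in controls. In the same direction in both stood 7902 genes, which is 84.2% of the genes called without HOIL and 63.4% of those called in controls, and 97 were called in opposite directions. The difference between the 2 cell type effects, tested itself as an interaction, was called for 1909 genes (9.84%), 1159 with a higher and 750 with a lower value without HOIL. With DESeq-type size factors (RLE) the split turned to 714 and 873, as the median interaction over all genes moved from 0.09 to -0.05, and without control mTEChi replicate 3 the total was 949. Control mTEChi also differed in RNA composition, with 3.19 to 8.93% mitochondrial transcripts. Its part in the interaction was not tested. Xist, with unscaled totals, stood at 1.84 to 8.06 CPM in the control libraries, against 149 and 164 CPM in the female HOIL-deficient ones. Sex thus appeared uneven between the genotypes, and its part in the interaction was not tested either.

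The cortical and medullary lists kept their direction in both genotypes. All 19 cortical genes were lower in mTEChi without HOIL and in controls, with medians of -2.41 and -3.37, and for 13 of them the interaction was called, each with a smaller decrease without HOIL (11 to 14 over the alternatives). Thymocyte markers moved alongside: 9 of 20 were lower without HOIL in this fit and all 20 in controls, with medians of -1.09 and -2.88, and 10 had a positive interaction (3 without control mTEChi replicate 3). Their part was not tested. Psmb11 had a log2FC of -3.84 without HOIL and -5.52 in controls, an interaction of 1.67 (SE 0.283, adjusted p = 0.0044). Its controls were at 3768 ± 623 CPM in cTECs and 82.2 ± 25.5 in mTEChi. Control levels here and below use totals scaled over all 12 libraries. Foxn1 had a log2FC of -1.11 and -2.91 (interaction 1.80, adjusted p = 0.0099), with 68.2 ± 24.3 CPM in control mTEChi and 515 ± 152 in control cTECs. For Dll4 (log2FC -3.22 and -3.31) and Frmd6 (log2FC -5.50 and -5.97) no interaction was called (adjusted p = 0.94 and 0.55). Of 21 medullary genes 17 were called higher in both genotypes, with list medians of 4.39 without HOIL and 5.93 in controls. The interaction was called negative for 3 of them and positive for 1. Ccl19 was among the negative ones (interaction -2.47, adjusted p = 0.00041), and Cd40 was the positive one (interaction 0.94, adjusted p = 0.025). Aire had a log2FC of 10.70 without HOIL and 9.85 in controls (interaction 0.84, SE 0.824, adjusted p = 0.56), Fezf2 9.37 and 8.66 (interaction 0.71, SE 0.833, adjusted p = 0.64) and Tnfrsf11a 4.39 and 4.48 (interaction -0.08, SE 0.371, adjusted p = 0.96). An adjusted p above the threshold does not show that the effects were equal.

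**Figure D5:**
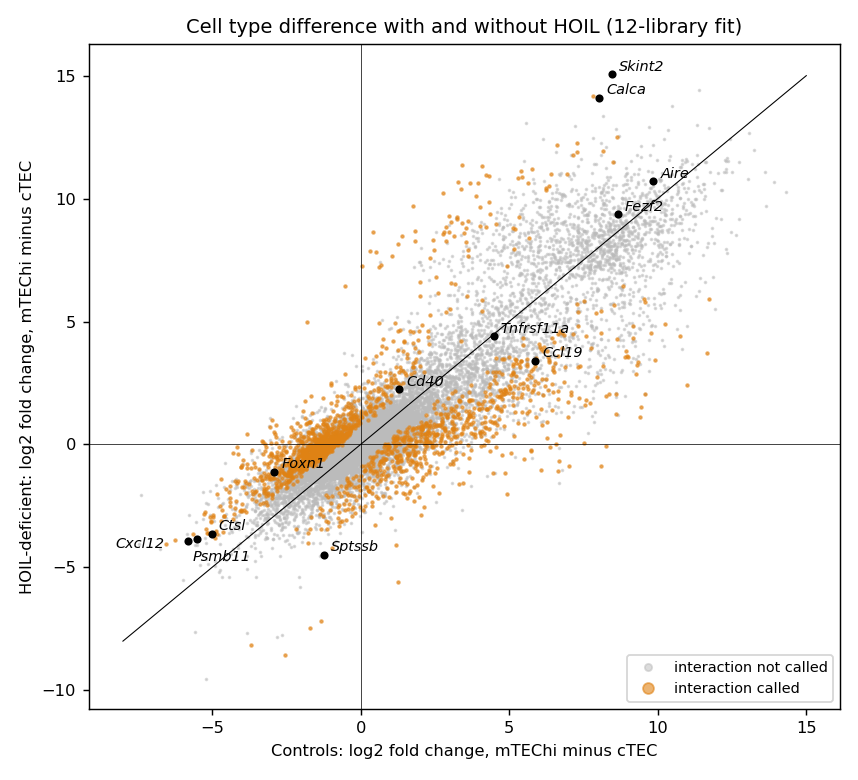
Log2 fold change of mTEChi over cTECs without HOIL (vertical axis) against that in controls (horizontal axis) from the fit of all 12 libraries, with 1 point per gene, orange where the interaction was called and black for labelled genes. The diagonal line marks equal effects. Psmb11, Cxcl12, Ctsl and Foxn1 lie above it and Ccl19 and Sptssb below, while Aire, Fezf2 and Tnfrsf11a lie near it.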

How the data were processed

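Sorted thymic epithelium was sequenced as SMART-Seq v4 and Nextera XT libraries with paired reads on a NextSeq machine, per the labels' protocols. The deposited values are raw counts of reads per gene with Entrez identifiers, which the authors made with featureCounts on mm10, per the submitters' processing notes. The aligner, annotation release and strand setting were not given in the sources used here. A gene and an overlapping or antisense neighbour may share reads. Symbols and positions came from RefSeq (GRCm38.p6), which named 25275 of 27179 genes. Genes without a symbol held 5.01 to 5.27% of counts.

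Computed here in R 4.3.3: the 3 HOIL-deficient mTEChi and 3 HOIL-deficient cTEC libraries were compared with edgeR 4.0.16 (filterByExpr, TMM, robust quasi-likelihood test, no covariates). Genes were called at a Benjamini-Hochberg adjusted p under 0.05 over all 17661 tested genes, a standard error is the fold change divided by the square root of F, and CPM used TMM-scaled totals. The interaction came from 1 fit of all 12 libraries with 4 groups. Where a group had 0 counts, a fold is a bound against 3 counts over the group, and with 1 to 3 counts an exact 95% interval is given, and both cover counting error only. Whether replicates are separate animals is not stated, so p-values measure only the spread between these samples, which may be technical. In simulated data 100 genes were changed at each of 2 sizes, and all others were left unchanged. There 29% of 2-fold and 68% of 4-fold changes were recovered for the main comparison and 5% and 50% for the interaction. Calls among unchanged genes numbered 13 and 7. In the real main comparison 45.2% of genes were called, so these shares may not carry over to it.

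Genes named are Rbck1, Rnf31 and Sharpin, a panel of 25 lineage and presentation genes that holds them, the 10 genes in each direction that changed most among called, non-overlapping genes of at least 5 average log2 CPM that are not sex-linked, predicted or pseudogenes, and up to 4 members of each of 40 lists with the smallest p. Not every gene the rule names is reported here. Further list members were named after their values were seen. Members and lists were chosen with earlier results of these data known. Alternatives were other scalings (RLE, upper quartile), no filter, DESeq2 1.42.0, limma-voom (limma 3.58.1), a test against 2-fold (glmTreat), a replicate block, male libraries only, a fit of all 12 libraries, and each library left out.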

Additional observations from a re-analysis of the deposited data

Results flagged for a closer look

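For 13 genes of the panel and of the 20 largest changes, the log2 difference between mTEChi and cTECs was not the same with and without HOIL, as tested by the interaction term of the edgeR fit of all 12 libraries (9.84% of all genes tested). Of these, 7 were genes lower in mTEChi by a smaller step without HOIL, given here as log2FC without HOIL, log2FC in controls and their difference. Psmb11 gave -3.84, -5.52 and a difference of 1.674, Prss16 -3.64, -5.63 and 1.993, and Ctsl -3.64, -5.02 and 1.376. Cxcl12 gave -3.92, -5.81 and 1.891, Ly75 -3.62, -5.16 and 1.538, Foxn1 -1.11, -2.91 and 1.803, and Il7 -1.04, -1.95 and 0.9082. Their adjusted p was between 0.0044 for Psmb11 and 0.033 for Il7. Sptssb went the other way, at -4.50, -1.24 and -3.254 (adjusted p = 0.0014), with 36.1 ± 14.01 CPM in control cTECs and 15.2 ± 2.53 in control mTEChi.

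Among genes higher in mTEChi, Ccl19 had log2FC 3.41 without HOIL and 5.88 in controls, a difference of -2.47 (adjusted p = 0.00041), with controls at 204 ± 5.16 CPM in mTEChi and 3.43 ± 0.601 in cTECs. Cd40 had 2.24 and 1.30, a difference of 0.9388 (adjusted p = 0.025). Calca (14.104 and 8.03, difference 6.074, adjusted p = 0.0057), Cldn13 (14.16 and 7.83, difference 6.337, adjusted p = 0.022) and Skint2 (15.06 and 8.46, difference 6.601, adjusted p = 0.0012) were at 0 in every HOIL-deficient cTEC library, so these sizes depend on the prior count and are no bounds. Control cTECs had 0.843 ± 0.521, 1.00 ± 0.906 and 0.704 ± 0.291 CPM of them. Over the 15 alternatives for the interaction the difference was called in 9 for Cd40, 5 for Il7 and 14 for Cldn13, and in all 15 for the other 10 genes. Calca, Cldn13, Skint2 and Sptssb were picked for their large differences in the same HOIL-deficient libraries that enter the interaction. Their adjusted p and calls are thus a description.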

How the results depend on the processing

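No gene called in both the main comparison and an alternative changed direction between them. Genes that lost their call were checked for direction only where named. Of the values of named genes over all alternatives 2924 stayed on their side of the threshold, 20 passed it newly, 71 no longer did and 0 reversed. The 7987 calls were 7914 with RLE factors, 7949 with upper-quartile factors, 8929 without a filter, 8458 with DESeq2, 8283 with limma-voom and 9382 in the fit of all 12 libraries. Against a 2-fold threshold (glmTreat) 4379 genes were called, 981 of them lower, and with male libraries only 6116, 1911 of them lower. Leaving out 1 library gave 6862 to 8353 calls. The interaction moved more: with 1 library left out it was called for 949 to 2088 genes, 500 to 1270 of them higher without HOIL and 449 to 818 lower. The lowest counts came without control mTEChi replicate 3 (949), control mTEChi replicate 1 (1172), HOIL-deficient mTEChi replicate 3 (1182) and control cTEC replicate 3 (1256), and without HOIL-deficient mTEChi replicate 2 750 genes were higher. With RLE factors 714 were higher, 45.0% of the calls against 60.7%. The replicate numbers are not known to mark shared animals. The deviations of same-numbered libraries correlated at 0.057, 0.099 and 0.046, though each library correlated best with its own number, a hint from the data only. With the replicate block 7871 genes were called, 4872 higher and 2999 lower, 7455 of them among the 7987, and the interaction for 1475. The depth of 8445145 to 14274333 counts limits rare transcripts: 3 counts over a group are 0.0891 CPM in mTEChi and 0.0911 in cTECs.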

Other observations

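Of 23 DNA replication genes 6 were higher in mTEChi without HOIL, near the 28.3% of all genes, and none lower (median log2FC 0.29), with sums of 992 to 1186 CPM in mTEChi and 813 to 1025 in cTECs, and the 6 became 3 without any 1 cTEC library and 1 without any 1 mTEChi library. Ccne1, cyclin E1, stood at 22.3, 22.4 and 22.3 CPM in mTEChi and 10.4, 7.58 and 11.6 in cTECs (log2FC 1.18, adjusted p = 0.0054), without overlap. Of 21 mitosis genes 6 were higher and 3 lower, near the 28.3% and 16.9% of all genes (median 0.35), and the 6 became 3 without cTEC replicate 1 or mTEChi replicate 1 or 2. The checkpoint kinase gene Bub1 was higher (log2FC 1.54, adjusted p = 0.0021) and the anaphase activator Cdc20 lower (log2FC -0.75, adjusted p = 0.0028). In the fit of all 12 libraries 3 replication genes were higher and none lower without HOIL, and in controls 1 was higher and 15 were lower (11 with RLE factors). For mitosis genes the counts were 2 higher and 2 lower without HOIL against 0 higher and 17 lower in controls (16 with RLE factors). The interaction itself was positive for 10 replication genes (7 to 12 over the alternatives) and 10 mitosis genes (5 to 13, the lowest without HOIL-deficient mTEChi replicate 2), beside 9.84% of all genes called in either direction. Thymocyte markers, whose cells divide, had a positive interaction in 10 of 20, and their part was not tested.

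Of 28 interferon-stimulated genes 10 were lower and 3 higher in mTEChi without HOIL, beside 16.9% and 28.3% of all genes (median -0.42), with sums of 2599 to 3165 CPM against 3832 to 4557. Isg20, an antiviral exonuclease, stood at 88.0, 113 and 101 CPM in mTEChi and 977, 1079 and 897 in cTECs (log2FC -3.29, adjusted p = 6.3e-07), while Usp18, which removes ISG15 from proteins, was higher (log2FC 2.01, adjusted p = 1.3e-05). Of 25 nuclear genes of the respiratory chain 7 were higher, near the 28.3% of all genes, and none lower (median 0.34), and 12 were higher without mTEChi replicate 2. Cox4i1, a subunit of cytochrome oxidase, stood at 707, 633 and 740.0 CPM in mTEChi and 304, 317 and 350.0 in cTECs, without overlap (log2FC 1.10, adjusted p = 6.4e-05).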
